A study of Mus musculus with 18 samples.

Results

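Cartilage from knees taken 7 days after rupture of the anterior cruciate ligament (ACL) was compared with cartilage from knees of naïve mice. The comparison used 9 of the 18 RNA libraries of the series, chosen by their treatment label. The 3 injured libraries (day_7_right) came from right knees in which a 12 N load had torn the ACL under isoflurane. The 6 naïve libraries (day_7_naive) came from mice that had no injury. All mice were wild-type male C57Bl/6J, 12 weeks old per the study's methods, and injured mice also received buprenorphine for pain. The labels do not say whether naïve mice were given anaesthetic or analgesic, so injury and these drugs cannot be told apart in this comparison. Contralateral knees of the injured mice, which shared the drugs, were not compared here. Day 1 injured and day 1 contralateral libraries, 3 of each, entered the statistical fit to help estimate the spread, and day 7 contralateral libraries did not.

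Each injured library was a pool of knees from 4 mice, combined because part of the cartilage had been lost by day 7. The naïve libraries held 2 knees each from 6 mice in all, with left and right knees pooled apart, so they share mice in a way the labels do not resolve. Hence n = 3 and n = 6 count libraries and not mice, and p-values describe the spread between these libraries. Total estimated counts were 26931502, 19296475 and 25586471 in the injured libraries and 16074762 to 29407822 (median 25084935) in the naïve ones. Levels of genes are given as CPM, counts relative to the size of the library after TMM scaling, which allows for a few very abundant genes that take up reads. They are compared between groups for the same gene. TPM, which also divides by transcript length, is used to compare different genes.

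Articular cartilage is made by chondrocytes, which embed themselves in type II collagen and in the proteoglycan aggrecan, while tendon, ligament, synovium and scar rest on type I and type III collagen. Loss of the ACL lets the tibia slide forward under the femur and is widely used in mice to start post-traumatic osteoarthritis. Collagens of either kind are folded and hydroxylated in the endoplasmic reticulum, exported in large carriers, trimmed and cross-linked outside the cell, and later broken down by metalloproteinases.

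The tissue was labelled cartilage and chondrocyte, and the markers of several other tissues were abundant in every library. The summed level of 10 chondrocyte markers was 5351 ± 1342 CPM (SD, n = 6) in naïve and 7534 ± 464 CPM (SD, n = 3) in injured libraries, with overlap between the groups. That of 16 erythroid markers was 36715 ± 4056 CPM in naïve and 24292 ± 5715 CPM in injured libraries. Every erythroid sum of the injured libraries (29412, 25339 and 18126 CPM) lay below the lowest naïve sum of 32807 CPM. Summed levels of 15 neutrophil and marrow genes were 13701 ± 2147 and 10323 ± 1799 CPM, and of 17 skeletal muscle genes 13073 ± 4897 and 7975 ± 2694 CPM, in naïve and injured libraries respectively. Blood, marrow and muscle RNA was therefore present throughout, and no defining marker of any list tested was at 0 in all libraries.

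**Figure D1:**
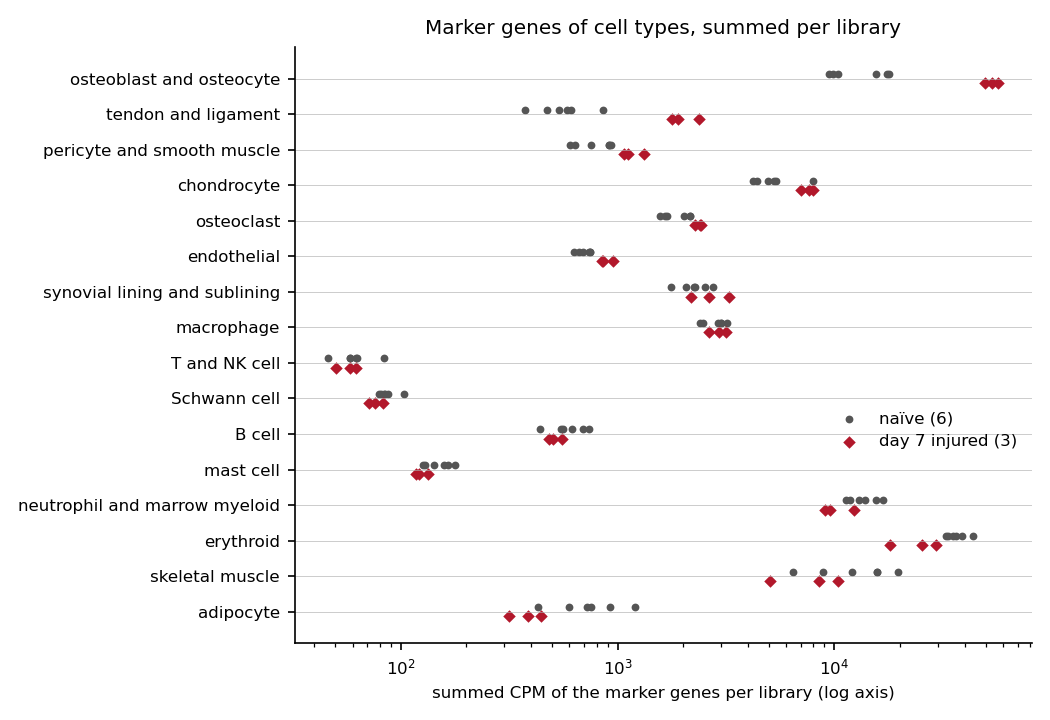
Summed CPM of the marker genes of 16 cell types (log axis) in each of the 6 naïve (grey circles) and 3 day 7 injured libraries (red diamonds). The osteoblast list, which is mostly Col1a1, and the tendon and ligament list stood above all naïve libraries, and the erythroid list stood below them.

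Of 49184 annotated genes, 21129 had enough counts to be tested, and 3498 of these (16.6%) differed between day 7 injured and naïve cartilage at a false discovery rate (FDR) of at most 0.05 in edgeR's quasi-likelihood test with a fold change of at least 1.5. More genes were higher than lower. In injured libraries 2207 genes (10.4%) were higher and 1291 (6.11%) were lower, and the median log2 fold change over all genes tested was −0.04. Both groups held genes that did not overlap. Every injured library lay above every naïve one for 18.3% of all genes tested and below for 9.86%, and among called genes this held for 2077 of those higher and 923 of those lower. Because RNA was taken from whole tissue, a change in the number of cells of a type cannot be told apart from a change in RNA per cell.

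The genes that rose went further than those that fell, and were more abundant. At least 4-fold changes were reached by 261 genes in the upward and 64 in the downward direction, and changes of at least 16-fold by 22 and 4 genes. The median naïve level was 10.5 CPM for genes called higher and 1.71 CPM for genes called lower, against 7.88 CPM for all genes tested. Of the genes called lower, 61 had at most 3 counts in every injured library, and of those called higher 6 had at most 3 counts in every naïve library, so that their fitted folds are not bounded by the data. The balance of the directions depended on scaling. With upper-quartile scaling, under which the median log2 fold change was −0.21, 1608 genes were higher and 2739 lower, so that 37.0% of calls were higher in place of 63.1%. The number of genes called lower also depended on which libraries were kept. It was 1020, 885 and 797 without injured library 1, 2 and 3, and 1015 to 1425 with a naïve library left out.

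**Figure D2:**
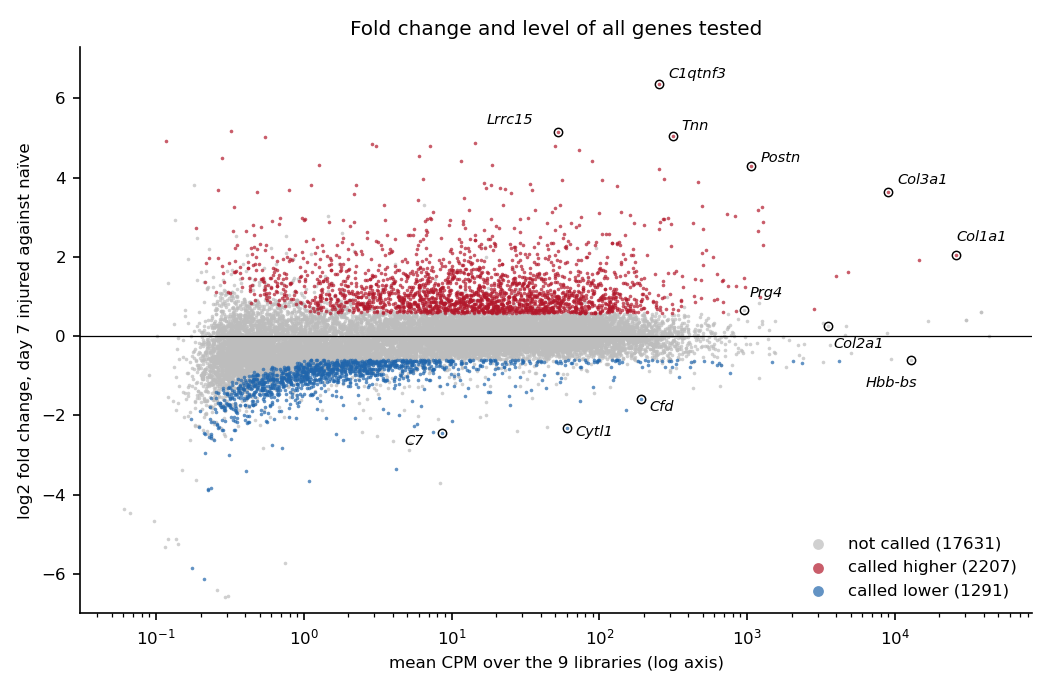
Log2 fold change of day 7 injured against naïve cartilage (vertical axis) and mean CPM over the 9 libraries (log axis) for the 21129 genes tested, with 2207 called higher in red and 1291 called lower in blue. Col3a1 and Col1a1 are among the most abundant genes and rose, while Col2a1 and Prg4 were not called.

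Among protein-coding genes of at least 5 CPM in the injured group and without overlap, the gene furthest up was C1qtnf3 (chromosome 15, 10952332 to 10980150, plus strand, GRCm38), which encodes a secreted C1q/TNF-related protein also known as a cartilage-derived adipokine. C1qtnf3 was at 5.44 to 12.5 CPM (median 8.88) in naïve libraries and at 612, 696 and 916 CPM in injured libraries. It rose 82.4-fold (log2 fold change 6.37, SE 0.262, FDR 9.19e-10, edgeR). All injured libraries were far above all naïve ones. In day 1 injured libraries its mean level was 7.65 CPM.

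Lrrc15, a membrane protein of activated fibroblasts, ranged from 2.24 to 6.4 CPM (median 3.82) in naïve libraries and reached 113, 137 and 195 CPM in injured libraries, a log2 fold change of 5.16 (SE 0.312, FDR 1.9e-08). Tnn, which encodes tenascin-N (tenascin-W), a matrix protein of bone surfaces, tendon and tumour stroma, went from 19.3 to 43.1 CPM (median 23.9) in naïve libraries to 693, 843 and 1115 CPM, a log2 fold change of 5.05 (SE 0.248, FDR 2.29e-09). Postn, encoding periostin of periosteum and ligament, lay at 84 to 312 CPM in naïve libraries and at 2142, 2999 and 3563 CPM in injured libraries, a log2 fold change of 4.29 (SE 0.433, FDR 2.98e-06). For these 3 genes the groups were separated by a wide gap.

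The other genes furthest up were of several kinds. Agtr2, a receptor for angiotensin II, rose from a mean of 0.256 to 8.17 CPM. Crabp2, which carries retinoic acid to its receptor, rose from 0.718 to 20 CPM. Mest, an imprinted gene of growing mesoderm, rose from 4.99 to 140 CPM. These genes are low or nearly silent in naïve cartilage. Cthrc1, a secreted protein of matrix-producing fibroblasts, rose with a log2 fold change of 4.69. Fbn2, the microfibril protein fibrillin-2, rose with a log2 fold change of 4.42, and Ptn, a heparin-binding growth factor, with one of 4.31. Moxd1, Adamts16, Fndc1, Aspn and Dkk3 completed the set of 15, with log2 fold changes between 3.94 and 4.41. Among genes that do not code for protein, the imprinted RNA H19 rose from a mean of 46.5 to 392 CPM (log2 fold change 3.07, SE 0.301, FDR 2.22e-06).

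**Figure D3:**
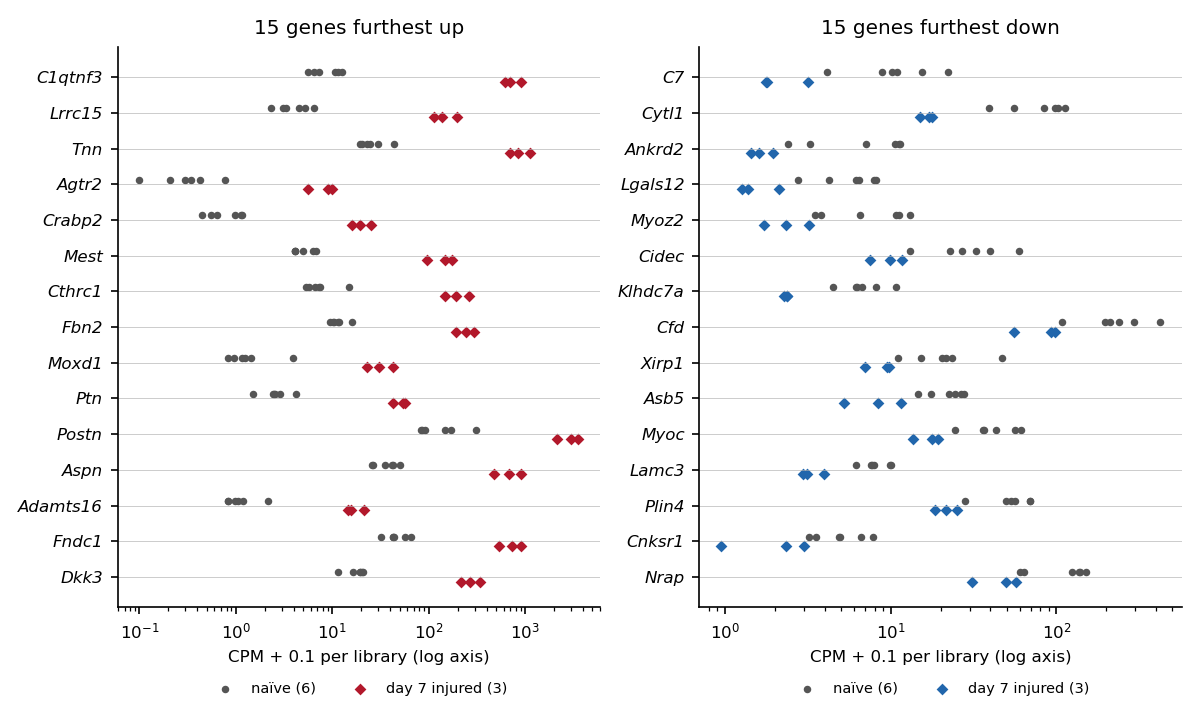
CPM + 0.1 of each naïve (grey circles) and day 7 injured library (coloured diamonds) on a log axis, for the 15 protein-coding genes furthest up (left) and furthest down (right) with groups that do not overlap. Gaps are wide on the left, where C1qtnf3 rose 82.4-fold, and narrow on the right.

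Genes of the fibrous matrix formed the group that rose most completely. Of 36 genes tested, 35 rose and only Fbln1, with a log2 fold change of 0.49, did not pass, with a median log2 fold change of 2.69 against −0.04 for all genes. The fibrillar collagens carried most of this RNA. Col1a1 (chromosome 11, 94936224 to 94953042, plus strand) was at 8766 to 16944 CPM (median 12204) in naïve libraries and at 52449, 48495 and 56164 CPM in injured libraries, a log2 fold change of 2.05 (SE 0.248, FDR 1.72e-05). Col3a1 (chromosome 1, 45311538 to 45349706, plus strand), the collagen of young scar and vessel walls, was at 1308 to 2772 CPM (median 1590) in naïve and at 22580, 22384 and 24946 CPM in injured libraries, a log2 fold change of 3.65 (SE 0.266, FDR 1.26e-07). Neither gene overlapped between groups, and the injured libraries were close to each other. Per length, Col3a1 stood at a mean of 223 TPM in naïve libraries, below Col2a1 at 356 TPM, and in injured libraries at 2325 TPM, above Col2a1 at 335 TPM and below Col1a1 at 3655 TPM.

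Other collagens of the fibrous matrix list rose as well. Col5a1, which nucleates fibrils, rose with a log2 fold change of 3.25 (257 to 371 CPM in naïve, 2757, 2855 and 3700 CPM in injured libraries). Col12a1, which sits on fibril surfaces of tendon and ligament, rose with a log2 fold change of 3.19, and Col16a1 with one of 2.85. Matn2, a filament-forming matrilin, rose from 19.3 to 27.7 CPM in naïve libraries to 154, 183 and 205 CPM (log2 fold change 3.01, SE 0.115, FDR 5.66e-10). All injured libraries lay above all naïve ones for each of these genes.

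Of 14 small leucine-rich proteoglycans, which regulate the width and spacing of collagen fibrils, 9 rose, and the median log2 fold change was 1.23. Aspn (asporin) was at 25.6 to 49.8 CPM (median 38.6) in naïve libraries and at 472, 681 and 913 CPM in injured libraries, a log2 fold change of 4.22 (SE 0.274, FDR 4.04e-08). Lum (lumican) rose with a log2 fold change of 2.86, Ogn (osteoglycin) with one of 2.55 and Bgn (biglycan) with one of 2.3. The gap between groups was wide for Aspn and Lum. Markers of tendon and ligament overlap with the matrix lists, since Fmod and Kera are also among the proteoglycans and Thbs4 among the fibrous matrix genes. Of 7 such genes, 6 rose, and their summed level was 573 ± 162 CPM in naïve libraries and 1786, 1898 and 2385 CPM in injured ones. Most of this sum came from the shared genes, with mean levels in naïve and injured libraries of 297 and 1177 CPM for Fmod (fibromodulin) and 223 and 639 CPM for Thbs4 (thrombospondin-4). Among those not shared, Tnmd (tenomodulin) rose from 4.19 to 13.5 CPM in naïve libraries to 91.5, 85.3 and 95.9 CPM. The part of these cells in the change of fibrous matrix was not tested. The summed osteoblast and osteocyte markers were also above all naïve libraries, at 53283 ± 3850 against 13443 ± 3958 CPM, but nearly all of this sum was Col1a1. Of its 13 genes 2 rose (15.4%, against 10.4% of all genes tested), Col1a1 and Ibsp (bone sialoprotein). Another 2 fell (15.4%, against 6.11%), Sost and Mepe, both made by osteocytes. Mepe fell short of 1.5-fold without injured library 1 or naïve library 3, at log2 fold changes of −0.5 and −0.58, and Ibsp did so with upper-quartile scaling, at 0.51.

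Of 23 cartilage matrix genes tested, 4 rose (17.4%, against 10.4% of all genes tested), 2 fell (8.7%, against 6.11%) and 17 did not pass, with a median log2 fold change of 0.24. Col2a1, the main collagen of cartilage, was at 2632 to 5053 CPM (median 3038) in naïve libraries and at 3707, 4249 and 3771 CPM in injured libraries, a log2 fold change of 0.25 (SE 0.196, FDR 0.358). The groups overlapped. Acan (chromosome 7, 79053483 to 79115099, plus strand), encoding aggrecan, was at 252 to 595 CPM (median 358) in naïve libraries and at 974, 1099 and 1285 CPM in injured libraries, and rose 2.96-fold (SE of log2 0.202, FDR 3.31e-05). Comp, a bridging protein of cartilage and tendon, was at 302 to 563 CPM (median 447) and then at 1086, 1111 and 1262 CPM, a log2 fold change of 1.39 (SE 0.203, FDR 0.000104). Acan and Comp did not overlap between groups, unlike Col2a1.

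Matn4, a matrilin, rose with a log2 fold change of 2.36 and Col11a1, a minor fibril collagen of cartilage, with one of 1.26. Prg4, the lubricin of the cartilage surface and synovium, was at 379 to 1445 CPM (median 726) in naïve libraries and at 749, 1170 and 1818 CPM in injured libraries, a log2 fold change of 0.65 (SE 0.425, FDR 0.266). Its spread within either group was larger than the difference. The cytokine-like protein gene Cytl1 (chromosome 5, 37735519 to 37739820, plus strand), known from chondrocytes, fell from 39.1 to 113 CPM (median 91.0) in naïve libraries to 17, 17.6 and 14.9 CPM, a log2 fold change of −2.31 (SE 0.401, FDR 0.000492). All injured libraries were below all naïve ones. Chad (chondroadherin) fell with a log2 fold change of −0.73 at an FDR of 0.0459, and lost the call without any of the 3 injured libraries (FDR 0.151, 0.123 and 0.0772 without libraries 1, 2 and 3) and without naïve library 1, 2, 3 or 4 (FDR 0.0609 to 0.0856).

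**Figure D4:**
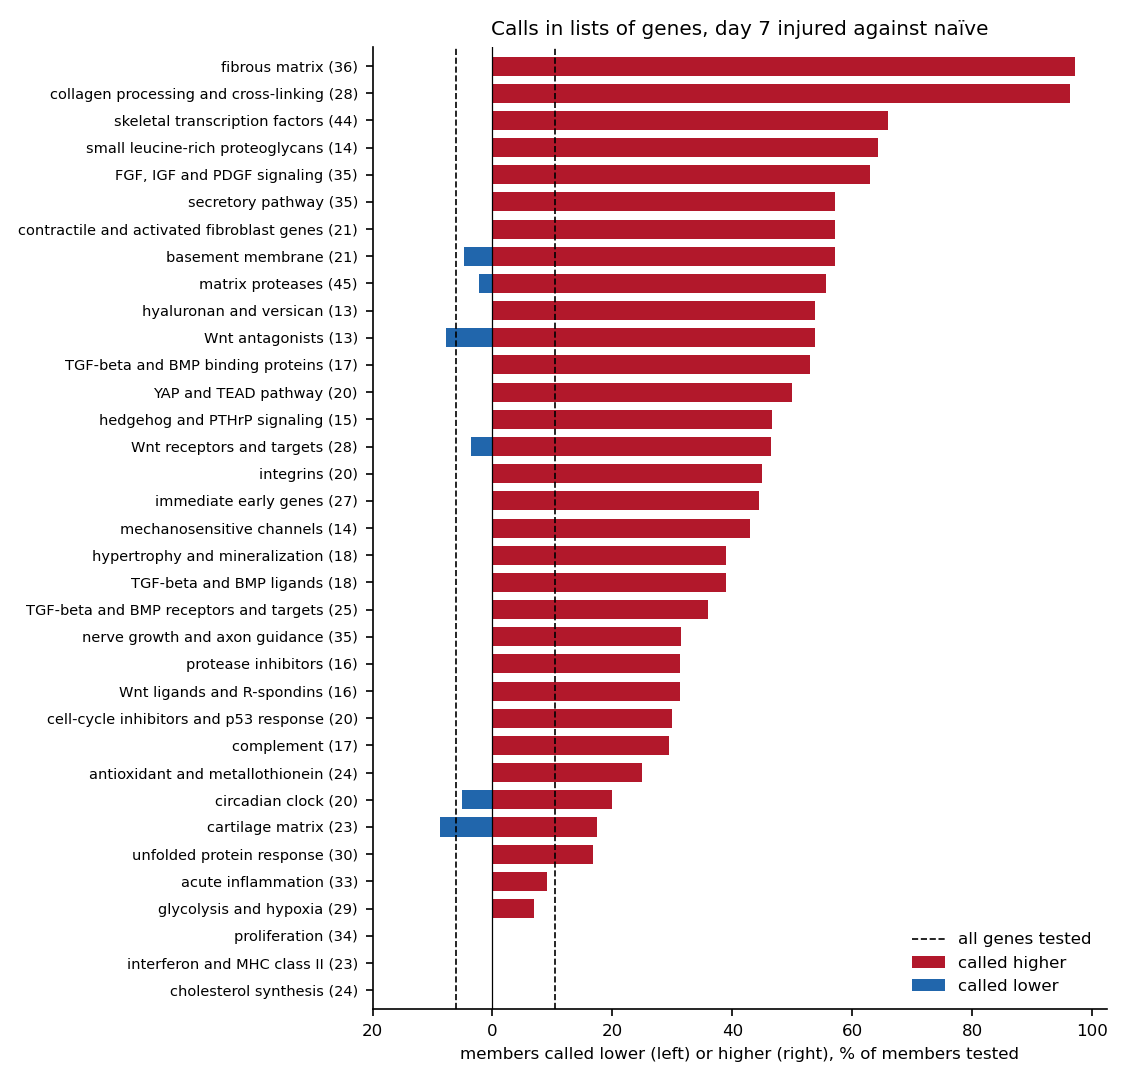
Percent of the members tested (in brackets) that were called higher (red, right) or lower (blue, left) in 35 lists of genes. Dashed lines mark the same share of all genes tested, 10.4% higher and 6.11% lower, and the lists of fibrous matrix and collagen processing lie at the top.

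The machinery that makes collagen rose nearly as a whole. Of 28 genes of collagen processing and cross-linking that were tested, 27 rose, with a median log2 fold change of 1.67, and only Pcolce2, with a log2 fold change of 0.09, did not pass. Loxl2, a lysyl oxidase that cross-links collagen, was at 70.7 to 116 CPM (median 78.5) in naïve libraries and at 486, 608 and 725 CPM in injured libraries, a log2 fold change of 2.88 (SE 0.176, FDR 2.15e-08). P4ha2, a prolyl hydroxylase, rose with a log2 fold change of 2.51. Plod2, a lysyl hydroxylase of the collagen telopeptides, rose with one of 2.21, and Serpinh1 (Hsp47), the collagen chaperone, with one of 1.8 (206 to 365 CPM in naïve, 948, 865 and 1048 CPM in injured libraries). Groups did not overlap for any of these 4 genes.

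Of 35 genes of the secretory pathway, 20 rose, with a median log2 fold change of 0.7. Kdelr3, which returns escaped chaperones to the endoplasmic reticulum, rose with a log2 fold change of 2.11. Sec23a and Sar1a, parts of the COPII coat that buds cargo carriers from the endoplasmic reticulum, rose with log2 fold changes of 0.99 and 0.98. Of 30 genes of the unfolded protein response 5 rose (16.7%, against 10.4% of all genes tested), namely P4hb, Pdia4, Selenos, Pdia3 and Manf, and the median was 0.34. The first of these is also the beta subunit of collagen prolyl hydroxylase. With upper-quartile scaling 1 of the 5 was called. With no fold limit 17 of the 30 were called higher, as were 3960 of all 21129 genes. For 15 of the 30 every injured library lay above every naïve one, a position held by 18.3% of all genes tested.

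Basement membrane genes rose in part. Of 21, 12 rose and 1 fell, with a median log2 fold change of 0.8. Lama4 and Lamc1, laminin chains, rose with log2 fold changes of 1.71 and 1.44, Nid2 (nidogen-2) with one of 1.48, and Hspg2 (perlecan), also a component of cartilage, from 330 to 596 CPM in naïve libraries to 1091, 1144 and 1311 CPM. Lamc3, another laminin chain, fell from 6.11 to 9.9 CPM to 2.84, 3.86 and 3.04 CPM, a log2 fold change of −1.33 (SE 0.208, FDR 0.000192). Vessel markers moved with these genes. Of 14 endothelial genes 7 rose, among them Emcn, Cdh5, Tie1 and Pecam1, and their sum was 704 ± 50.4 CPM in naïve and 854, 847 and 948 CPM in injured libraries. The most abundant of them, Vwf, was lower in every injured library than in any naïve one, with means of 259 and 201 CPM (log2 fold change −0.37, FDR 0.0271, under the 1.5-fold limit). Of 9 pericyte and smooth muscle genes 4 rose, namely Mcam, Pdgfrb, Rgs5 and Cspg4, and the sum went from 790 ± 147 to 1170 ± 138 CPM. With upper-quartile scaling the endothelial count was 2. The part of vessel cells in the change of basement membrane genes was not tested.

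Of 13 genes of hyaluronan metabolism and of versican, 7 rose, and 4 did so without injured library 3 or with DESeq2. Vcan, a proteoglycan of provisional matrix that binds hyaluronan, was at 51.4 to 202 CPM (median 88.6) in naïve libraries and at 318, 424 and 528 CPM in injured libraries, a log2 fold change of 2.06 (SE 0.425, FDR 0.00195). Cemip, which depolymerises hyaluronan, rose with a log2 fold change of 1.57 (SE 0.123, FDR 2.41e-07). Cd44, the cell-surface hyaluronan receptor, was above all naïve libraries but at a log2 fold change of 0.48 fell short of the limit of 1.5-fold.

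Many proteases that cut matrix rose. Of 45 matrix proteases tested, 25 rose and 1 fell, with a median log2 fold change of 0.85. Mmp2 (gelatinase A) was at most 145 CPM (median 133) in naïve libraries and at 1123, 1110 and 1459 CPM in injured libraries, a log2 fold change of 3.29 (SE 0.153, FDR 1.81e-09). Mmp14, the membrane enzyme that activates pro-Mmp2 and cuts fibrillar collagen, was at 71.2 to 114 CPM (median 105) and then at 595, 674 and 855 CPM, a log2 fold change of 2.82 (SE 0.15, FDR 4.61e-09). Both were well apart from the naïve libraries. Adamts16 rose with a log2 fold change of 3.97, Mmp23 with one of 2.72 and Adamts12, which cuts COMP, with one of 2.3. Mmp24, at under 1 CPM in all libraries, fell at an FDR of 0.0329 and lost the call without injured library 2 (FDR 0.134) or 3 (FDR 0.122) and without naïve library 3 (FDR 0.056) or 4 (FDR 0.0565).

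The proteases most often named in osteoarthritis behaved unevenly, and the following 3 were chosen after their values were seen. Adamts5, the main aggrecanase of mouse cartilage, was at 55.6 to 88.6 CPM in naïve and at 65.7, 74.0 and 70.1 CPM in injured libraries (log2 fold change 0.06, SE 0.128, FDR 0.734). Adamts4, a related aggrecanase, was at 1.5 to 9.55 CPM and then at 29.8, 29.9 and 36.8 CPM, a log2 fold change of 2.55 (SE 0.467, FDR 0.000775). The groups overlapped for Adamts5 and were apart for Adamts4. Mmp13, the collagenase of hypertrophic chondrocytes and osteoblasts, rose with a log2 fold change of 0.88 (FDR 0.00774). Mmp9, the gelatinase of neutrophils and osteoclasts, had means of 775 and 784 CPM and did not pass (FDR 0.936).

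Of 16 protease inhibitors 5 rose (31.2%, against 10.4% of all genes tested), with a median log2 fold change of 0.45. Timp2, which inhibits metalloproteinases and also takes part in activating pro-Mmp2, was at 173 to 308 CPM (median 234) in naïve libraries and at 837, 908 and 1306 CPM in injured libraries, a log2 fold change of 2.09 (SE 0.192, FDR 1.2e-06). Serpinf1 (pigment epithelium-derived factor) rose with a log2 fold change of 1.64, Serping1 with one of 0.93 and Reck with one of 0.7. Serpine2 was called at a log2 fold change of 0.59, next to the limit of 1.5-fold, and fell short of it without injured library 2 or 3 or naïve library 1, 5 or 6, at log2 fold changes of 0.52 to 0.58. With upper-quartile scaling 3 of the 16 were called higher and 1 lower.

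In the TGF-β and BMP family, ligands, the proteins that hold them in the matrix, and receptors all had members that rose. Of 18 ligands 7 rose (38.9%, against 10.4% of all genes tested). Gdf5, a joint-forming factor of the embryo, was at 0.122 to 0.57 CPM (median 0.464) in naïve libraries and at 6.85, 4.05 and 6.98 CPM in injured libraries, a log2 fold change of 3.81 (SE 0.321, FDR 5.16e-07). Tgfb3 was at 20.8 to 28.5 CPM and then at 76.2, 84 and 112 CPM, a log2 fold change of 1.86 (SE 0.144, FDR 2.24e-07), and Tgfb2 rose with one of 1.35. Tgfb1, the most abundant ligand gene of the list in CPM, had means of 159 and 152 CPM and overlapped between groups (FDR 0.586). Of 17 binding proteins tested 9 rose, with a median of 0.86. Fstl1, a secreted follistatin-like protein, was at 141 to 251 CPM and then at 1005, 1168 and 1303 CPM, a log2 fold change of 2.71 (SE 0.205, FDR 1.75e-07). Ltbp3 and Ltbp1, which anchor latent TGF-β, rose with log2 fold changes of 1.54 and 1.33. Of 25 receptors, Smads and target genes 9 rose (36.0%, against 10.4% of all genes tested), with a median of 0.47. Those that rose included the receptors Acvr1 (1.31) and Tgfbr2 (0.83) and the transducers Smad1 (1.07) and Smad5 (0.71). With upper-quartile scaling 5 of the 25 were called.

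In the Wnt pathway 5 of 16 ligands and R-spondins tested rose (31.2%, against 10.4% of all genes tested). Wnt16, known from the articular surface, was at 0.873 to 2.13 CPM (median 1.16) in naïve libraries and at 9.04, 8.11 and 7.27 CPM in injured libraries, a log2 fold change of 2.55 (SE 0.245, FDR 1.8e-06). Wnt9a, a joint-line Wnt of the embryo, rose with a log2 fold change of 2.22, and Rspo2, which amplifies Wnt signals, with one of 1.68. Of 13 antagonists tested 7 rose and 1 fell. Sfrp2, a decoy for Wnts, was at 8.74 to 17.8 CPM (median 13.8) and then at 107, 124 and 121 CPM, a log2 fold change of 3.14 (SE 0.27, FDR 6.39e-07). Dkk3 rose with a log2 fold change of 3.94, Sfrp1 with one of 2.77 and Kremen1 with one of 1.59. In contrast, Sost (sclerostin), made by osteocytes, fell from 16 to 30 CPM (median 23.2) to 13.2, 13 and 9.31 CPM, a log2 fold change of −0.95 (SE 0.224, FDR 0.00488). Injured libraries were apart from naïve ones in each of these antagonists.

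Of 28 Wnt receptors and targets 13 rose and 1 fell, with a median log2 fold change of 0.57. Fzd2 and Fzd6, frizzled receptors, rose with log2 fold changes of 2.46 and 2.01, and Ror2 and Ryk, which bind Wnt5a among others, with ones of 2.46 and 1.13. Ctnnb1 (β-catenin), the most abundant gene of the list, had means of 348 and 490 CPM and with a log2 fold change of 0.5 stayed under the 1.5-fold limit. Rnf43, which removes frizzled receptors from the membrane, fell with a log2 fold change of −0.63, and lost the call without injured library 2 (FDR 0.0758) or 3 (FDR 0.0668) and, by fold, without naïve library 2 (log2 fold change −0.57). With a transcript length offset its direction reversed, at a log2 fold change of 0.38 (FDR 0.441).

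Growth factors followed a similar course. Of 35 genes of FGF, IGF and PDGF signalling that were tested, 22 rose, with a median log2 fold change of 1.02. Igf1, the growth factor that drives matrix synthesis in chondrocytes, was at 73.6 to 113 CPM (median 77.9) in naïve libraries and at 504, 697 and 746 CPM in injured libraries, a log2 fold change of 2.96 (SE 0.144, FDR 2.13e-09). Pdgfrl rose with a log2 fold change of 2.45. Igfbp3, a carrier of IGFs, rose with one of 2.26, and Igf2r, which clears IGF2, with one of 1.33. The receptor of Igf1 itself, Igf1r, had a log2 fold change of −0.06 and was chosen after its value was seen. Of 15 genes of hedgehog and PTHrP signalling 7 rose, with a median of 0.58. Cdon and Boc, hedgehog co-receptors, rose with log2 fold changes of 1.52 and 1.25, Gli3 with one of 1.33 and Smo, the signal transducer, with one of 0.99.

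Of 35 genes of nerve growth and axon guidance tested 11 rose (31.4%, against 10.4% of all genes tested). The count was 6 without injured library 3 and 7 with upper-quartile scaling. Genes called lower numbered 1 without injured library 3 or naïve library 5, 2 with a transcript length offset and 3 with upper-quartile scaling. Robo1, a receptor for Slit guidance proteins, was at 10 to 14.2 CPM (median 11.6) in naïve libraries and at 41.6, 52.7 and 71.5 CPM in injured libraries, a log2 fold change of 2.24 (SE 0.156, FDR 8.48e-08). Sema3b, a repellent semaphorin, rose with a log2 fold change of 1.68, and the semaphorin co-receptors Plxna1 and Nrp2 with ones of 0.94 and 0.7. Summed markers of Schwann cells overlapped between groups, at 86.9 ± 8.98 and 77.0 ± 5.81 CPM.

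Integrins and mechanosensitive channels, by which cells hold and sense the matrix, moved unevenly. Of 20 integrins 9 rose (45.0%, against 10.4% of all genes tested) and 11 did not pass, with a median log2 fold change of 0.37. In 3 of the 20, all among these 11, every injured library lay below every naïve one, a position held by 9.86% of all genes tested. Itga2b, the platelet and megakaryocyte integrin, was among them with means of 163 and 110 CPM (log2 fold change −0.58, SE 0.123, FDR 0.00249), just under the 1.5-fold limit, and 1 integrin was called lower without injured library 1 or naïve library 4, 5 or 6 and by DESeq2 and limma-voom. Itga11, a collagen receptor of fibroblasts, was at 19.7 to 28.5 CPM (median 24.8) in naïve libraries and at 125, 163 and 220 CPM in injured libraries, a log2 fold change of 2.8 (SE 0.185, FDR 4.73e-08), and its partner Itgb1 rose with a log2 fold change of 1.01. Of 14 mechanosensitive channels tested 6 rose (42.9%, against 10.4% of all genes tested) and 8 did not pass. Piezo2, a stretch-activated channel known from sensory neurons, was at 7.89 to 12.2 CPM (median 9.8) and then at 68.6, 93.3 and 106 CPM, a log2 fold change of 3.18 (SE 0.146, FDR 1.81e-09). Pkd2 and Pkd1, polycystins of the primary cilium, rose with log2 fold changes of 1.99 and 1.65. In Itga11, Piezo2 and both polycystins the groups were wide apart.

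YAP and TAZ (Wwtr1) are co-activators that enter the nucleus on stiff or stretched matrix and act through TEAD factors on DNA. Of 20 genes of this pathway 10 rose, with a median log2 fold change of 0.58. Wwtr1 was at 36.3 to 56.2 CPM (median 41.4) in naïve libraries and at 104, 114 and 133 CPM in injured libraries, a log2 fold change of 1.42 (SE 0.14, FDR 2.3e-06). Yap1 was at 30.3 to 44.2 CPM (median 36.4) and then at 67.2, 73.5 and 83.3 CPM, a log2 fold change of 1.01 (SE 0.119, FDR 1.3e-05). Ajuba and Amotl2, which regulate the kinases upstream of YAP, rose with log2 fold changes of 1.57 and 0.97. None of the 4 overlapped between groups. Axl, a receptor kinase also counted among YAP targets, was above all naïve libraries but stayed under 1.5-fold (log2 fold change 0.41).

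The core of the motif that TEAD factors bind, CATTCC or its reverse complement GGAATG, was sought in the 250 bases before the start of each gene with a window in RefSeq (GRCm38.p6, 13853 of 21113 gene symbols). It was present in 11.1% of all windows, in 13.5% of those of genes called higher and in 12.7% of those of genes called lower, and in 9 of 16 windows of the YAP and TEAD list, which holds components of the pathway as well as known targets. The motif may overlap other motifs, and a match describes letters and not a bound site. Stretches of 30 bases around it are shown for members of the list that rose, 5′ to 3′ on the strand of the gene with the core in capitals, to show where the letters lie. They are on the minus strand of GRCm38.p6 except in Amotl2.
Ajuba, chr14:54577808-54577837: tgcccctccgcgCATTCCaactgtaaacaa
Ajuba, chr14:54577830-54577859: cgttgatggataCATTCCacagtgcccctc
Amotl2, chr9:102717727-102717756: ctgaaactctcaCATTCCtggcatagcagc
Wwtr1, chr3:57576029-57576058: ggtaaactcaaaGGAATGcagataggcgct
Yap1, chr9:8004720-8004749: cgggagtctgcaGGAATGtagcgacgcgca
Counted from the start in RefSeq, which can differ from the start in GENCODE (the stretch of Amotl2 lies inside the gene as GENCODE gives it), the motif begins 164 and 186 bases before the start of Ajuba, 65 before that of Amotl2, 136 before that of Wwtr1 and 141 before that of Yap1. Ccn1 and Tead3 also rose and hold the core, and so do Ankrd1, Axl and Crim1, which were not called. In this window the letters therefore occur in members on both sides of the threshold.

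Of 44 skeletal transcription factors tested 29 rose, with a median log2 fold change of 0.86. Scx (scleraxis), the factor of tendon and ligament cells, was at 1.75 to 4.2 CPM (median 3.1) in naïve libraries and at 23.5, 21.8 and 24.1 CPM in injured libraries, a log2 fold change of 2.94 (SE 0.227, FDR 2.17e-07). Sox9, the factor of chondrocytes, was at 14.4 to 27.2 CPM (median 22.9) and then at 41.7, 52.6 and 73.5 CPM, a log2 fold change of 1.36 (SE 0.186, FDR 5.91e-05). Groups were apart in both, with the larger gap for Scx. Prrx1 and Twist1, factors of limb mesenchyme, rose with log2 fold changes of 1.64 and 1.51, and Nfatc2 with one of 1.46. Runx2, the factor of osteoblasts and hypertrophic chondrocytes, was chosen after its value was seen, and with a log2 fold change of 0 (FDR 0.996) did not pass.

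Genes of contractile and activated fibroblasts rose in 12 of 21 cases, with a median log2 fold change of 1.18. Besides Lrrc15 and Cthrc1, Mxra8, a matrix-remodelling membrane protein, rose from 49.4 to 60.8 CPM in naïve libraries to 253, 256 and 336 CPM (log2 fold change 2.36, SE 0.115, FDR 2.13e-09), and Thy1, a surface marker of fibroblasts, with a log2 fold change of 1.91. Vim (vimentin) was at 521 to 1067 CPM (median 608) and then at 1327, 1590 and 1788 CPM, a log2 fold change of 1.24. Synovial markers showed a mixed picture. Of 13 genes 4 rose (30.8%, against 10.4% of all genes tested), namely Pdgfra, Hbegf, Ly6a and Cd34. The most abundant, Prg4, did not pass, and the summed level overlapped between groups at 2273 ± 345 and 2694 ± 551 CPM. The part of synovial cells was not tested.

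Of 18 genes of hypertrophy and mineralization tested 7 rose (38.9%, against 10.4% of all genes tested), with a median log2 fold change of 0.41. Enpp1, which makes pyrophosphate and so restrains mineral, was at 58.6 to 102 CPM (median 79.6) in naïve libraries and at 255, 315 and 426 CPM in injured libraries, a log2 fold change of 2.04 (SE 0.195, FDR 1.71e-06). Mgp, another inhibitor of mineral, rose with a log2 fold change of 0.83 and Wnt5b with one of 0.77. Col10a1, the collagen that defines hypertrophic chondrocytes, was chosen after its value was seen. It was at 213 to 603 CPM in naïve and at 301, 401 and 338 CPM in injured libraries (log2 fold change −0.02, SE 0.296, FDR 0.971), and the groups overlapped.

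Among osteoclast markers, Ctsk (cathepsin K), which digests collagen and is also made by fibroblasts, was the only 1 of 11 that rose (9.09%, against 10.4% of all genes tested), from 180 to 330 CPM in naïve libraries to 558, 652 and 597 CPM (log2 fold change 1.25, SE 0.157, FDR 2.51e-05). It was 1 of 3 called without injured library 1 or naïve library 6, and 1 of 2 without injured library 2 or naïve library 3. The summed level of the list was 1878 ± 273 CPM in naïve and 2372 ± 82.7 CPM in injured libraries, with all injured libraries above the naïve ones. Ctsk, with means of 254 and 602 CPM, added more to this difference than any other member. Mmp9, the most abundant member, had means of 775 and 784 CPM. Of the 11 genes, 10 had log2 fold changes above 0.

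Of 33 genes of acute inflammation 3 rose at day 7, a share of 9.09% against 10.4% of all genes tested. The median log2 fold change was 0.02, and the count was 1 without injured library 3 and 6 when the 9 libraries were fitted alone. Up to 2 genes were called lower when a library was left out, the most without naïve library 3, and 2 were with upper-quartile scaling. The gene that kept its call was Ptgs2 (cyclooxygenase-2), which makes prostaglandins. It was at 1.36 to 7.31 CPM (median 2.16) in naïve libraries and at 33.1, 28.1 and 68.7 CPM in injured libraries, a log2 fold change of 3.87 (SE 0.647, FDR 0.000357). The injured libraries were apart from the naïve ones, with library 3 the highest. Ptges, the next enzyme towards prostaglandin E2, and Il1r1, the interleukin-1 receptor, rose with log2 fold changes of 0.79 and 0.88 and lost the call without injured library 3 (FDR 0.0724 and 0.079). Cxcl12, the most abundant gene of the list in CPM, had means of 770 and 709 CPM and did not pass (FDR 0.358). Il6, chosen after its value was seen, had a log2 fold change of 0.02 with an SE of 1.01, at levels of 0.07 to 2.08 CPM in naïve and 0.513 to 0.95 CPM in injured libraries.

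Of 16 macrophage genes 2 rose, a share of 12.5% against 10.4% of all genes tested. Of these Ms4a7, a membrane protein of macrophages, rose with a log2 fold change of 1.09 but lost its call without injured library 2 (FDR 0.0737) or 3 (FDR 0.0805). The macrophage count was 1 without injured library 2 and 4 without naïve library 5, and the summed levels overlapped at 2832 ± 322 and 2916 ± 270 CPM. Of 12 T and NK cell genes and 8 mast cell genes none was called by edgeR, DESeq2 or limma-voom, with 1 of each lower at an unadjusted p of 0.05. Of 13 B cell genes 1 fell (7.69%, against 6.11% of all genes tested) and 12 did not pass, and the summed level overlapped at 600 ± 107 and 513 ± 38.5 CPM. The gene was Ms4a1, which encodes CD20, with a log2 fold change of −0.8 (SE 0.193, FDR 0.00616). Of 23 interferon and MHC class II genes none passed in edgeR, also at an unadjusted p of 0.05, nor in DESeq2 or limma-voom, and the median log2 fold change was −0.08. Without naïve library 4, and also with upper-quartile scaling, 1 T and NK cell gene was called lower.

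Of 17 complement genes tested 5 rose (29.4%, against 10.4% of all genes tested), namely C1s1, C1ra, Masp1, Cfb and Serping1, an inhibitor of C1. C1s1 and C1ra, the proteases of the C1 complex, rose with log2 fold changes of 1.45 and 1.09. Masp1, of the lectin pathway, rose from 1.3 to 2.8 CPM in naïve libraries to 17.4, 14.6 and 19.6 CPM, a log2 fold change of 2.96 (SE 0.225, FDR 1.85e-07). C3, the most abundant member in CPM, did not pass, with means of 682 and 540 CPM.

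Of 27 immediate early genes 12 rose (44.4%, against 10.4% of all genes tested), and 6 did so without injured library 3. Nr4a2, an orphan nuclear receptor, was at 3.67 to 7.23 CPM (median 6.08) in naïve libraries and at 30.3, 29.0 and 72.0 CPM in injured libraries, a log2 fold change of 2.95 (SE 0.282, FDR 1.76e-06). Nr4a3 was at 3.43 to 13 CPM (median 6.33) and then at 23.9, 25.3 and 95.1 CPM, a log2 fold change of 2.72 (SE 0.512, FDR 0.000978). Injured library 3 was the highest in both. The same library carried the calls of Fosb and Nr4a1. Fosb was at 15.4, 6.8 and 33.3 CPM and Nr4a1 at 48.4, 27.3 and 87.9 CPM in injured libraries, both overlapped with naïve libraries, and without injured library 3 their FDRs were 0.185 and 0.27. Jund, Fosl2 and Atf3, subunits of AP-1 or related factors, rose with log2 fold changes of 1.01, 0.94 and 1.39.

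Of 29 genes of glycolysis and hypoxia 2 rose (6.9%, against 10.4% of all genes tested), Car12 (log2 fold change 0.95) and Slc2a1 (0.62), and the second lost its call without injured library 1 (FDR 0.0583) or 3 (FDR 0.0822) and, by fold, without naïve library 1, 2 or 6. Of 24 genes of cholesterol synthesis none was called by edgeR, DESeq2 or limma-voom, with 5 higher at an unadjusted p of 0.05, against 8679 of all 21129 genes in either direction. With a transcript length offset 1 of the 24 was called higher. Of 24 antioxidant genes 6 rose. Gpx7 and Gpx8, peroxidases of the endoplasmic reticulum, rose with log2 fold changes of 2.27 and 1.7, Prdx4, of the same compartment, with one of 1.09, and the secreted Gpx3 with one of 1.06. Of 20 clock genes 4 rose, with Npas2 at 0.49 to 5.45 CPM in naïve and at 8.2, 8.96 and 9.73 CPM in injured libraries.

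No gene of proliferation reached the limit of 1.5-fold, though all but 1 had log2 fold changes below 0. With no fold limit 15 of the 34 were called lower, so that the others did not pass the FDR either. Of 34 such genes none was called by edgeR, DESeq2 or limma-voom, 26 were lower at an unadjusted p of 0.05, which 8679 of all 21129 genes reached in either direction, 17 had every injured library below every naïve one (a position held by 9.86% of all genes), and the median log2 fold change was −0.28. Mki67, a marker of dividing cells, was at 1358 to 1718 CPM (median 1547) in naïve libraries and at 963, 1307 and 1086 CPM in injured libraries, a log2 fold change of −0.46 (SE 0.115, FDR 0.00708). All injured libraries were lower. Without injured library 2, 1 of the 34 was called lower, and 2 were with upper-quartile scaling. Summed erythroid markers were lower in the same libraries, and their part in this was not tested. Of 20 cell-cycle inhibitors and p53 targets 6 rose (30.0%, against 10.4% of all genes tested). Cdkn1c (p57), an imprinted inhibitor, was at 6.94 to 13.5 CPM (median 10.2) and then at 28.4, 30.6 and 35.1 CPM, a log2 fold change of 1.61 (SE 0.216, FDR 4.81e-05), and Cdkn2b (p15) rose with one of 2.15.

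The 15 protein-coding genes furthest down, chosen by the same rule, included genes known from fat, muscle and cartilage, and most lost their call without a single library. C7 (chromosome 15, 4988762 to 5063740, minus strand), a complement component, was at 4.04 to 22.2 CPM (median 10.5) in naïve libraries and at 3.08, 1.7 and 1.66 CPM in injured libraries, a log2 fold change of −2.45 (SE 0.661, FDR 0.0118). The groups were apart by little, and the FDR was 0.0509 without injured library 2 and 0.0605 without injured library 3. Cfd (adipsin), a product of adipocytes, was at 108 to 422 CPM (median 224) and then at 93.0, 97.6 and 55.4 CPM, a log2 fold change of −1.58 (SE 0.462, FDR 0.0182), with an FDR of 0.0931 without injured library 3. Plin4 (perilipin-4), which coats fat droplets, was at 27.9 to 69.5 CPM (median 54.9) and then at 25.1, 18.4 and 21.5 CPM, a log2 fold change of −1.32 (SE 0.272, FDR 0.00197), and kept its call without any single library.

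Of 10 adipocyte markers 5 fell (Retn, Lep, Cidec, Cfd and Plin4), with a median log2 fold change of −1.27. The count was 2 without injured library 1 or 2 or with limma-voom, and 1 without injured library 3. The summed level was 771 ± 269 CPM in naïve libraries and 385, 444 and 315 CPM in injured ones, of which 1 overlapped with the lowest naïve sum of 428 CPM. Of 17 skeletal muscle genes only Myh2 fell (5.88%, against 6.11% of all genes tested), with overlap between groups, and its call was lost without any injured library (FDR 0.0914, 0.164 and 0.12 without libraries 1, 2 and 3) and without naïve library 1, 2, 3 or 4 (FDR 0.0695 to 0.0816). The count was 3 without naïve library 5, 2 without naïve library 6, 4 with DESeq2 and 5 when the 9 libraries were fitted alone. All 17 had log2 fold changes below 0, with a median of −0.74. Ttn (titin), the most abundant of them in CPM, had means of 3688 and 2330 CPM and did not pass (FDR 0.195).

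Muscle-associated genes outside this list were also among the 15 furthest down. Asb5 fell with a log2 fold change of −1.41 (FDR 0.00197) in all fits that left out 1 library. Ankrd2 lost its call without injured library 3 (FDR 0.0502), Nrap without injured library 2 (FDR 0.0511), and Myoz2 without any injured library (FDR 0.0708, 0.141 and 0.127) or naïve library 1, 2, 3 or 4 (FDR 0.0518 to 0.0743). Xirp1 lost it without any injured library (FDR 0.0754, 0.116 and 0.0806) or naïve library 4 (FDR 0.0534). Naïve libraries differed widely in muscle RNA, with summed levels of 6427 to 19634 CPM against 10389, 5068 and 8467 CPM in injured libraries, and the part of this spread in these genes was not tested. Of the others, Klhdc7a (log2 fold change −1.64) kept its call without any single library but lost it with limma-voom (FDR 0.0536). Lgals12 lost the call without injured library 1 (FDR 0.0554) or 3 (FDR 0.0599), Cidec (FDR 0.0545 to 0.103) and Myoc (FDR 0.0511 to 0.102) without any injured library, and Cnksr1 without injured library 2 (FDR 0.123) or 3 (FDR 0.0751). With limma-voom, C7, Ankrd2, Cidec, Cnksr1, Lgals12, Myoc, Myoz2 and Xirp1 were not called either (FDR 0.0586 to 0.162).

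The erythroid genes that fell did so with log2 fold changes of −0.73 to −0.6. Of 16 tested 7 fell (43.8%, against 6.11% of all genes tested), with a median log2 fold change of −0.59. For 14 every injured library lay below every naïve one, as it did for 9.86% of all genes tested. Epb42, a protein of the red cell membrane skeleton, was at 133 to 175 CPM (median 155) in naïve libraries and at 99.3, 106 and 86.1 CPM in injured libraries, a log2 fold change of −0.67 (SE 0.122, FDR 0.000726). Hbb-bs, the β-globin gene and the most abundant member in CPM, was at 12980 to 16000 CPM (median 14312) and then at 11297, 10537 and 6762 CPM, with a log2 fold change of −0.59 (FDR 0.0606). Injured library 3 was the lowest in both, and without it 2 of the 16 were called, whereas 15 were with upper-quartile scaling. Of 15 neutrophil and marrow genes, 2 fell (13.3%, against 6.11% of all genes tested), S100a8 and S100a9, the calprotectin subunits of neutrophils, and neither was called without injured library 2 or 3 or naïve library 4 (FDR 0.0605, 0.103 and 0.0358 for S100a8, the last under the fold limit, and 0.141, 0.209 and 0.0901 for S100a9). S100a9 was also lost without naïve library 2 (FDR 0.0615) or 6 (FDR 0.0832), and 4 genes of this list were called without injured library 1 and 5 with upper-quartile scaling.

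The direction of change went with the kind of gene and its level. Of 16086 protein-coding genes tested, 13.1% were higher and 3.8% lower, with a median log2 fold change of 0.05. Of 1400 lincRNA genes 1.43% were higher and 14.9% lower, of 1328 antisense genes 1.66% and 15.6%, and of 848 processed pseudogenes 2.36% and 11.7%, with medians of −0.5, −0.49 and −0.47. Without injured library 3, 138 lincRNA, 130 antisense and 51 processed pseudogenes were lower in place of 209, 207 and 99, and 360 protein-coding genes in place of 611. Without injured library 2 the lower counts were 137 lincRNA, 62 processed pseudogenes and 406 protein-coding genes. Counts of genes called higher moved as well, from 22 antisense genes and 20 processed pseudogenes to 13 and 13 without injured library 3. With upper-quartile scaling 392 lincRNA, 404 antisense, 177 processed pseudogenes and 1450 protein-coding genes were lower, and 941 protein-coding genes were when these alone were fitted. By level, 9.34% of the 5130 genes under 1 CPM were lower and 2.88% higher, whereas 2.33% of the 1799 genes over 100 CPM were lower and 14.3% higher.

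**Figure D5:**
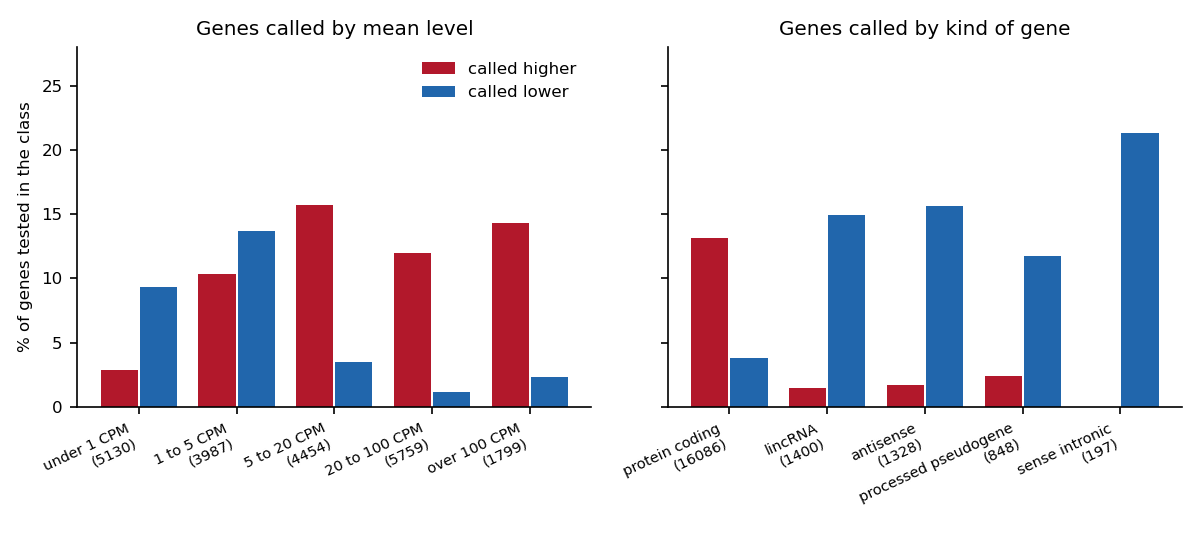
Percent of the genes tested (numbers in brackets) called higher (red) or lower (blue) in day 7 injured against naïve cartilage, by mean CPM over the 9 libraries (left) and by kind of gene (right). Genes under 1 CPM and genes that do not code for protein were called lower more often than higher, and protein-coding genes the reverse (13.1% against 3.8%).

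Single families did not all follow the level. Of 358 olfactory and taste receptor genes, which are not known to serve cartilage and had a median naïve level of 0.688 CPM, 86 (24.0%) were lower, with a median log2 fold change of −0.64. The count was 47, 51 and 51 without injured library 1, 2 and 3, and 139 with upper-quartile scaling. Of 65 histone cluster genes, whose median level was 225 CPM, 21 (32.3%) were lower, but 4 were without injured library 3, 13 without injured library 2, 11 without naïve library 3 and 35 with upper-quartile scaling. Of 83 cytosolic ribosomal protein genes and 74 nuclear genes of oxidative phosphorylation none was called by edgeR, with medians of 0.12 and −0.06. At an unadjusted p of 0.05, which 8679 of all 21129 genes reached, 18 ribosomal genes were higher and 1 lower, and 3 and 4 genes of oxidative phosphorylation, of which DESeq2 called 1 lower and limma-voom none. A ribosomal gene was called higher without injured library 3 or naïve library 5.

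RNA of injured libraries was concentrated in fewer genes. The 10 most abundant genes held 29.8%, 29.8% and 26.4% of the counts of injured libraries and 19.6% to 25.9% of those of naïve libraries, with means of 28.7% ± 1.96 (SD, n = 3) and 22.7% ± 2.05 (SD, n = 6), and a p of 0.0238 in a 2-sided exact permutation test (adjusted over 4 measures 0.0476). The number of genes at 1 CPM or more was 15085, 14995 and 15160 in injured libraries and 15734 to 16703 in naïve ones, with the same exact permutation p of 0.0238, the smallest that 3 against 6 libraries allow. For this number CPM was relative to the total count of the library, without TMM scaling. It is therefore not independent of the share held by the most abundant genes. TMM factors were 0.8166, 0.8032 and 0.8294 in injured libraries and 0.9491 to 1.091 in naïve ones. The difference of −1056 genes was −424 when protein-coding genes alone were counted. In both measures the groups were apart. Col1a1 held 4.28%, 3.89% and 4.65% of counts in injured libraries, and Col1a2 and Col3a1 were among the 10 most abundant genes of all 3. The shares of mitochondrial RNA (5.22% ± 1.82 and 6.74% ± 1.32 in injured and naïve libraries, exact permutation p = 0.262) and of RNA that does not code for protein (22.3% ± 2.8 and 21.9% ± 2.06, exact permutation p = 0.833) did not pass. The 7SL RNA genes Rn7s1 and Rn7s2 had identical values, as did Gm12895 and Gm12896, so reads of each pair could not be told apart, and neither pair was called.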

How the data were processed

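RNA from pooled cartilage was sequenced as paired-end reads from stranded total RNA depleted of ribosomal RNA. The authors trimmed reads with Trimmomatic and quantified transcripts with Kallisto, and the deposited files give an estimated count and a TPM (length-scaled) value per transcript. The submitters' processing notes name GRCh38, but the transcript identifiers are mouse. Of 137436 transcripts, 135107 (98.3%) matched GENCODE vM21 (GRCm38), and estimated counts were summed to 49184 genes and rounded. Unmatched transcripts held 0.667% to 2.4% of counts in the libraries compared. The study removed a library of the ACL model for low mapping without naming it, and whether it is among those compared is not known. TPM from the authors was summed per gene in the same way.

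Counts of 15 libraries (naïve 6, day 1 injured 3, day 1 contralateral 3 and day 7 injured 3) were filtered with filterByExpr, scaled by TMM and tested with edgeR 4.0.16 (quasi-likelihood F-test, R 4.3.3) with Benjamini-Hochberg adjustment over all 21129 genes. Day 7 contralateral libraries were left out because 1 of them was taken from earlier work to stand apart, which was not tested here. With all 18 libraries fitted, 2075 genes were called higher and 1185 lower. The standard error is the log2 fold change divided by the square root of F. A call needed an FDR of at most 0.05 and 1.5-fold. Library measures were compared with 2-sided exact permutation tests. Alternatives were 21 in number, with DESeq2 1.42.0 and limma-voom 3.58.1 among them. Scripts were tested on simulated data.

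Members, lists and tests were chosen with earlier results of these data known. Genes named were the 15 furthest up and down (protein coding, called, groups apart, at least 5 CPM in the higher group), up to 4 called genes of lowest FDR per list and direction, the most abundant gene of each list, Acan, Col2a1, Comp and Prg4, 4 genes that are not protein coding in each direction, the 10 most abundant genes of each group and the 5 called genes most variable among injured libraries. Fbln1, Pcolce2, Itga2b, Cfb, Thbs4, Manf, Lep, Ccn1, Tead3, Ankrd1, Crim1, Adamts4, Adamts5, Mmp13, Igf1r, Runx2, Col10a1 and Il6 lay outside this rule and were chosen after their values were seen. A few genes that this rule names are not reported here.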

Additional observations from a re-analysis of the deposited data

Results flagged for a closer look

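In the 6 naïve libraries, 24 of 241 genes and measures tested held a library whose gap to the nearest other exceeded Dixon's 95% critical value. Chance gives about 1 in 20 such groups. The cause was not tested for any of them.

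Naïve library 5 was the one apart for Cthrc1 (14.7 CPM, others 5.24 to 7.41), Il1r1 (42.8, others 21.8 to 27.0), Moxd1 (3.84, others 0.735 to 1.32), Ms4a7 (24.7, others 7.94 to 11.6), Ptgs2 (7.31, others 1.36 to 2.82), Sfrp1 (12.5, others 4.86 to 6.34), Vcan (202, others 51.4 to 107) and Vim (1067, others 521 to 634). These 8 genes, among them the fibroblast gene Cthrc1 and the macrophage gene Ms4a7, were all highest in that library, in CPM.

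Naïve library 4 was apart for Adamts16 (2.03 CPM, others 0.735 to 1.08), Igf1 (113, others 73.6 to 81.9), Kera (20.9, others 7.04 to 11.4), Loxl2 (116, others 70.7 to 78.8), Ptges (9.54, others 4.77 to 6.45), Twsg1 (76.4, others 62.1 to 65.8) and Xirp1 (47.1, others 11 to 23.5), being the highest in each. The lowest injured library was above it in all of these genes but Xirp1.

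Naïve library 3 was the highest for Col2a1 (5053 CPM, others 2632 to 3216), Hba-a2 (13787, others 9270 to 10950), Gm12918 (7.49, others at 0) and Rps13-ps2 (3.78, others 0 to 0.134), and the lowest for Lum (107, others 135 to 152). Without naïve library 3 the log2 fold change of Col2a1 was 0.41 (FDR 0.0543, edgeR), which did not pass. Naïve library 2 was the highest for Fbn2 (16.1 CPM, others 9.35 to 11.6) and Ighm (446, others 250 to 323). Naïve library 1 was the highest for Gm17491 (6.99 CPM, others 4.63 to 5.44) and the lowest for Pdia4 (75.5, others 100 to 110).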

How the results depend on the processing

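Each result was recomputed under 21 alternatives, of which 9 left out a library. Over 237 named genes, 4724 of 4947 values kept their direction and their side of the threshold, 178 lost and 44 gained the call, and 1 reversed, Rnf43 at a log2 fold change of 0.38 (FDR 0.441) with a transcript length offset. Of the 200 named genes called, 50 lost the call in at least 1 alternative. Of 2422 recomputed list counts, 235 moved by over 1.5 times.

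Genes called higher numbered 3960 with no fold limit and 1836 to 2292 with a library left out. Genes called lower numbered 2739 with upper-quartile scaling, 472 at an FDR of 0.01, 2331 with no fold limit and 797 to 1425 with a library left out, the lowest without injured library 3, of which 615 were among the 1291. Upper-quartile scaling also gave 1608 genes higher, so 37.0% of calls. With limma-voom 2254 genes were higher and 925 lower, and with DESeq2 2155 and 1309.

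With a library left out, the injured minus naïve difference in the share of the 10 most abundant genes was 5.39 to 7.13 percentage points and in genes at 1 CPM or more −1137 to −943, and their p-values were then limited by the number of libraries (adjusted exact permutation p of 0.0714 or more) and say nothing about stability. The difference in the mitochondrial share, −1.51 percentage points, was −0.727 without injured library 1, −2.51 without injured library 2 and −0.725 as a share of protein-coding counts. The difference in RNA that does not code for protein, 0.4 percentage points, ranged from −0.6 to 2.0, and was −0.2 without injured library 1, −0.6 without injured library 2 and −0.12 without naïve library 5.

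No paired analysis was possible because the labels do not tie libraries of the groups to shared mice. By the study's methods, day 1 injured and contralateral knees came from the same mice, yet their libraries entered the estimate of spread as independent. The 9 libraries fitted alone gave 2126 genes higher and 1279 lower. With 3 injured libraries, genes of low count are limited by depth, and an uncalled gene is not shown to be unchanged.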
